A study of Mus musculus with 2 samples.

Results

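Ceramide and sphingolipid metabolism was described in the liver of Iah1-KO and Iah1-WT mice through 39 genes, chosen by name for their place in the pathway by a rule that uses no measured value, though with earlier results of these data known. They cover 5 steps, namely de novo synthesis, sphingomyelin turnover, glycosphingolipids, ceramidases, and sphingoid bases with their phosphates. The platform annotation held 37 of the 39 symbols on probe sets assigned to a single gene, out of 22180 genes measured in this way. The 2 others were Col4a3bp and Glb1.

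The KO group consisted of male mice lacking Iah1, a homologue of a yeast esterase that cleaves isoamyl acetate, in the whole body. The WT group consisted of male mice with intact Iah1. Both groups received a high-fat diet for 12 weeks from 6 weeks of age and went without food for 4 hours before the liver was taken. RNA of 3 mice was combined for each genotype and hybridised to 1 Affymetrix array, so each value is that of a pool, the spread between mice cannot be recovered, and no test between the genotypes is possible. The strain and the design of the Iah1 allele are not given in the sources used here. Iah1 read 3.90 on the KO array and 8.59 on the WT array (log2 RMA value), a reading at least 15.1-fold lower in KO against the intensity filter.

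Ceramides are built in the endoplasmic reticulum from serine and a fatty acyl-CoA and are the branch point from which sphingomyelin and glycosphingolipids are made. Lysosomal enzymes break these lipids down again to ceramide, ceramidases release sphingosine, and sphingosine kinases turn it into sphingosine-1-phosphate, a circulating signal. In fatty liver the pathway is studied because saturated fatty acids feed ceramide synthesis and ceramides interfere with insulin signalling.

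Members are given as log2 RMA values, in which 1 unit is a doubling of probe brightness, and as the KO minus WT difference of these values. RMA values of different genes depend on their probes and are not set against each other. A gene was compared where the brighter of its readings was at least 4.68, which is the middle value of these readings over all genes, and 11090 genes met this filter. Among the 37 members measured, 32 passed this filter, each of them on both arrays, and the other 5 were Sptlc3, Cers5, Degs2, Acer1 and Sphk1. Error apart from differences between genes can be judged here only from genes with several probe sets. Their differences scattered around the gene's mean with a pooled standard deviation of 0.27 on the log2 scale (604 genes, dim and bright together). This figure holds no variation between mice, labelling reactions or hybridisations. The spread of the differences of all genes, given further on by brightness, is a second measure of size.

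The ceramidase genes were the step whose compared members all lay on the same side of 0, with Degs1 next in size on the lower side and Gla the member with the highest difference. Promoters of Acer2, Acer3, Asah2, Degs1 and Gla are shown for that reason, as RefSeq gives them for GRCm38.p6, from 250 bases before to 50 bases after each annotated start and read 5′ to 3′ on the gene's strand. Capitals mark the E-box CACGTG, the GC box GGGCGG, the CCAAT box CCAAT and the TATA box TATAAA on either strand. Acer2 lies at chr4:86874164-86874463 (plus strand), the 2 annotated starts of Acer3 at chr7:98309493-98309792 and chr7:98321159-98321458 (minus strand), Asah2 at chr19:32103091-32103390 (minus strand), Degs1 at chr1:182282146-182282445 (minus strand) and Gla at chrX:134600956-134601255 (minus strand).
Acer2: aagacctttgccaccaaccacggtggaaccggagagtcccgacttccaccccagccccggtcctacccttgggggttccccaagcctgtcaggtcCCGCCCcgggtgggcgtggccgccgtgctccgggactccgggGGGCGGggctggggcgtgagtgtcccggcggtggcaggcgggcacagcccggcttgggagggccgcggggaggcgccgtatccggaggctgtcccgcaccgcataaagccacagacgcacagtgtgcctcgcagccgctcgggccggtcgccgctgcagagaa
Acer3, first window: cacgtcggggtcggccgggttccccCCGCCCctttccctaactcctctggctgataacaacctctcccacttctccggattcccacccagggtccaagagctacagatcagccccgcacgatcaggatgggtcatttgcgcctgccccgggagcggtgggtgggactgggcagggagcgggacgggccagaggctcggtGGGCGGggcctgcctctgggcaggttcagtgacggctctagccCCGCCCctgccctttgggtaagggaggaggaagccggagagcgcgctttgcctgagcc
Acer3, second window: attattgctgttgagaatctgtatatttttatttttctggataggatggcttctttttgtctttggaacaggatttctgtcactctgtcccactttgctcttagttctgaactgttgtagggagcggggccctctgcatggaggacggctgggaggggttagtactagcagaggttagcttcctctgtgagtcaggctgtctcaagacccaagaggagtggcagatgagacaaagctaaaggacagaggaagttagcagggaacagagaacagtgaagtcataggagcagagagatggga
Asah2: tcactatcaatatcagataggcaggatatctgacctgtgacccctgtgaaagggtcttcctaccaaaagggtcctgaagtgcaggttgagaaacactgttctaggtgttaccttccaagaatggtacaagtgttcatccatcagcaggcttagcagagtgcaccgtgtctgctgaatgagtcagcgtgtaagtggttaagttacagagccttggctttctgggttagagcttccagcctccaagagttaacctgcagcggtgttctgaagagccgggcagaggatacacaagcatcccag
Degs1: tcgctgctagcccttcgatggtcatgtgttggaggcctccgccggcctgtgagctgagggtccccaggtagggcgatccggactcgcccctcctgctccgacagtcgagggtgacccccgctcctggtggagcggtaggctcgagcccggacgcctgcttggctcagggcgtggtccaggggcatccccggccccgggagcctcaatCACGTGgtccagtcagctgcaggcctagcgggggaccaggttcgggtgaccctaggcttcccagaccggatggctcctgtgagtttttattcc
Gla: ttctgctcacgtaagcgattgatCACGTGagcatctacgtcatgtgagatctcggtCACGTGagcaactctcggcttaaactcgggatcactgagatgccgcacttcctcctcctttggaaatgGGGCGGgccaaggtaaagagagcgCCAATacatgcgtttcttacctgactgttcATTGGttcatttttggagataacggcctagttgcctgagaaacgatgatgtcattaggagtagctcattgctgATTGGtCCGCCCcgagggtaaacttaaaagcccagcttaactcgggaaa

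The promoter set held no window for Asah1, so the shown ceramidase windows are those of Acer2, Acer3 and Asah2. No motif among those searched occurred in every one of these windows. GC boxes occurred 2 times in the Acer2 window and 3 times in the first Acer3 window, while the second Acer3 window and the Asah2 window held no match to any of the 4 motifs. The Gla window held 2 E-boxes, 2 GC boxes and 3 CCAAT boxes, and the Degs1 window held 1 E-box. E-boxes were present in 7.15% of all 32851 promoter windows of this length, GC boxes in 35.7%, CCAAT boxes in 37.4% and TATA boxes in 13.6%. Among the 49 windows of 34 members, 10 held an E-box, 30 a GC box, 19 a CCAAT box and 2 a TATA box. Some of these windows overlap each other, and the set of all windows includes genes that are not expressed in liver.

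Across the pathway, differences between the arrays were small. Of the 32 compared members, 19 lay below 0 and 13 above it, while 55.7% of all genes compared lay below 0. The median difference of the members was -0.03, against -0.02 for all genes compared. At 1.5-fold (0.585 on the log2 scale) no member was higher in KO, where 1.47% of all genes were, and 1 member, Asah1, was lower, where 2.45% of all genes were. At a lower threshold of 0.32 on the log2 scale, 1 member was higher against 6.62% of all genes, namely Gla, and 4 were lower against 10.4% of all genes, namely Asah1, Degs1, Cerk and Acer2. The remaining 27 members differed by less than that, which is 84.4% of the compared members and 83.0% of all genes compared. As a whole the list was therefore close to the background of these arrays, with a standard deviation of its differences of 0.23, against 0.26 for all genes.

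**Figure D1:**
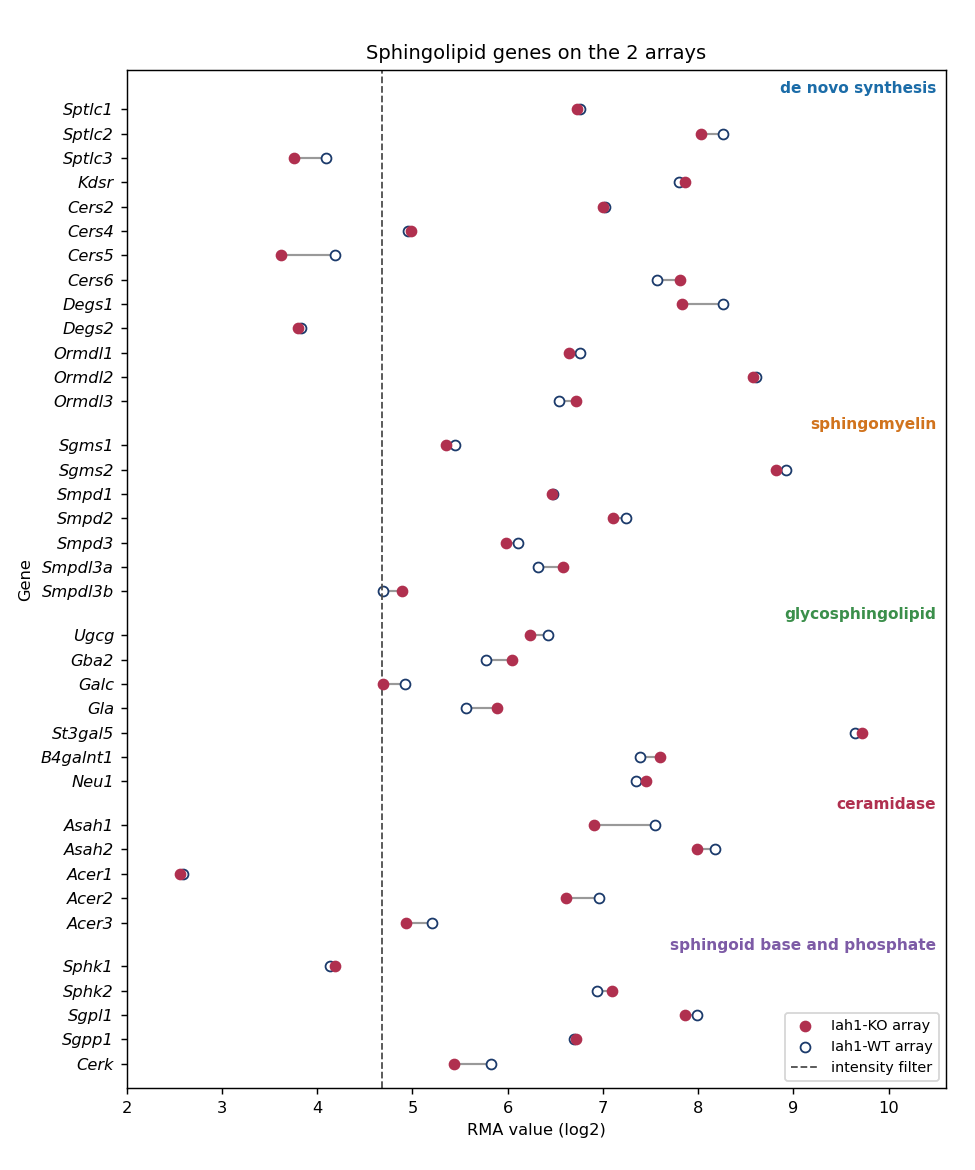
RMA values (log2, horizontal axis) of the 37 measured members on the Iah1-KO array (filled) and the Iah1-WT array (open), grouped by step, with the intensity filter of 4.68 as a dashed line. Most pairs of points nearly coincide, the 5 members left of the line were not compared, and Asah1 shows the widest gap of the compared members, at 6.91 in KO and 7.54 in WT.

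De novo synthesis begins with serine palmitoyltransferase, which joins serine and palmitoyl-CoA. Sptlc1, the shared subunit of this enzyme, read 6.73 in KO and 6.76 in WT, a difference of -0.03. Sptlc2, a catalytic subunit, read 8.03 in KO and 8.26 in WT, a difference of -0.23. The alternative catalytic subunit gene Sptlc3 was below the filter on both arrays, at 3.75 in KO and 4.09 in WT. Both compared subunits thus lay within the pooled disagreement between probe sets, 0.27, which is not split by brightness. Sptlc2 was in the brightest of 4 equal groups of compared genes. Its difference was larger than the standard deviation of all differences in that group, 0.16. The ORMDL proteins restrain this enzyme when ceramide is plentiful. Ormdl1 differed by -0.12 (6.64 in KO, 6.76 in WT), Ormdl2 by -0.03 (8.57 in KO, 8.60 in WT) and Ormdl3 by 0.18 (6.72 in KO, 6.54 in WT), so the family took no common direction. Kdsr, the reductase of the second reaction, read 7.87 in KO and 7.80 in WT.

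Ceramide synthases attach the second acyl chain and differ in the chain length they prefer. Cers2, the main synthase of very-long-chain ceramides in liver, read 7.0 in KO and 7.02 in WT as the mean of 2 probe sets. These probe sets disagreed in sign, at 0.13 for the brighter and -0.17 for the dimmer. Cers6, which favours palmitoyl chains and is linked to steatosis in obese mice, was 0.24 higher in KO (7.81 in KO, 7.57 in WT). Cers4, a synthase of other long-chain ceramides, differed by 0.03 (4.98 in KO, 4.95 in WT), and Cers5, which like Cers6 favours palmitoyl chains, was below the filter at 3.62 in KO and 4.18 in WT. The synthases above the filter therefore showed no larger difference than that of Cers6. This difference is smaller than the pooled disagreement between probe sets, 0.27. It is larger than the standard deviation of all differences in the brightest group of compared genes, 0.16, to which Cers6 belongs. The difference of Cers5 (-0.57) lies where neither array passed the filter.

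The last reaction of de novo synthesis gave the lowest difference among the compared members of this step. Degs1 encodes the desaturase that turns dihydroceramide into ceramide, and it was 1.35-fold lower in KO, at 7.83 in KO against 8.26 in WT (difference -0.43). It ranked 637th from the lowest of the 11090 genes compared. It was in the brightest of 4 equal groups of these genes, where all differences had a standard deviation of 0.16. Its relative Degs2, a desaturase that also hydroxylates, was below the filter at 3.80 in KO and 3.83 in WT. The 10 compared members of de novo synthesis had a median difference of -0.03, with 6 below 0 and 4 above.

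Sphingomyelin genes showed the narrowest range of the 5 steps, from -0.14 to 0.26. The synthases that pass phosphocholine to ceramide were close on both arrays and slightly lower in KO, Sgms1 of the Golgi by -0.10 (5.35 in KO, 5.45 in WT) and Sgms2 by -0.11 (8.82 in KO, 8.93 in WT). Ceramide reaches the Golgi through the transfer protein formerly named Col4a3bp, which the platform annotation lists under its current symbol Cert1. Cert1 was outside the symbol match and its value is given only beside the list, at 8.0 in KO and 8.15 in WT (difference -0.15).

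The sphingomyelinases split sphingomyelin back into ceramide and phosphocholine. Smpd1, the lysosomal acid enzyme, read 6.46 in KO and 6.47 in WT as the mean of 2 probe sets that lay at -0.11 and 0.09. The neutral enzymes Smpd2 (7.10 in KO, 7.24 in WT) and Smpd3 (5.99 in KO, 6.11 in WT) differed by -0.14 and -0.13. Relatives of the acid enzyme lay on the other side of 0. Smpdl3a, a phosphodiesterase that the sterol-sensing receptor LXR induces in human macrophages, differed by 0.26 (6.58 in KO, 6.32 in WT), with its 2 probe sets at 0.13 and 0.39. Smpdl3b, a membrane-bound phosphodiesterase, differed by 0.20 (4.89 in KO, 4.69 in WT) and was only just above the filter. All 7 compared sphingomyelin genes stayed under the lower threshold, and their median difference was -0.10 while their mean was -0.00 (-0.0028).

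Glycosphingolipid members lay mostly above 0, with 5 of 7 compared members higher in KO and a median difference of 0.10. Of all genes compared, 55.7% lay below 0. The 10 compared glycosphingolipid genes outside the member list had a median difference of -0.05, with 4 above 0 and 6 below. Among the members, the entry enzyme lay below 0. Ugcg, which adds glucose to ceramide, differed by -0.18 (6.24 in KO, 6.42 in WT). The ganglioside transferases that act further on were slightly higher. St3gal5, which makes the simplest ganglioside, differed by 0.08 (9.72 in KO, 9.64 in WT) and B4galnt1, which extends it, by 0.21 (7.60 in KO, 7.39 in WT).

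Breakdown of glycosphingolipids showed both signs. Gla, the lysosomal alpha-galactosidase that is deficient in Fabry disease, was 1.26-fold higher in KO, at 5.89 in KO against 5.56 in WT (difference 0.33). Gba2, a glucosylceramidase outside the lysosome, differed by 0.28 (6.05 in KO, 5.77 in WT), and Neu1, the lysosomal sialidase, by 0.10 (7.45 in KO, 7.35 in WT). Galc, the lysosomal galactosylceramidase, differed by -0.23 (4.69 in KO, 4.92 in WT) and was only just above the filter in KO. Among these, Gla and Gba2 exceeded the disagreement between probe sets, both by little, and 714 of the genes compared, Gla included, lay at least as high as Gla. Glb1, the lysosomal beta-galactosidase gene, was measured only by a probe set that also names Tmppe, so it has no value of its own.

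Ceramidase genes stood lowest among the 5 steps. All 4 compared members were lower in KO, where 55.7% of all genes compared lay below 0. Their median difference was -0.31, against -0.02 for all genes compared. Asah1 encodes the lysosomal acid ceramidase, whose loss causes Farber disease. It read 6.91 on the KO array and 7.54 on the WT array, a 1.55-fold lower value in KO (difference -0.63). The gap is 2.35 times the standard deviation between probe sets and 3.17 times the standard deviation of the differences of genes of similar brightness. Asah1 nevertheless ranked only 210th from the lowest of 11090 genes, and it rests on 1 probe set.

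The other ceramidases differed by less. Acer2, the Golgi alkaline ceramidase, was 1.27-fold lower in KO, at 6.61 in KO and 6.96 in WT (difference -0.35). Acer3, an alkaline ceramidase of the endoplasmic reticulum and Golgi, read 4.93 in KO and 5.21 in WT (difference -0.27). Asah2, the neutral ceramidase of the cell surface, read 7.99 in KO and 8.17 in WT (difference -0.18). The difference of Asah2 lay within the pooled disagreement between probe sets, 0.27, and that of Acer3 was about equal to it. Acer3 was in the dimmest of 4 equal groups of compared genes, where all differences had a standard deviation of 0.36. Asah2 was in the brightest group, where this standard deviation was 0.16. Without Asah1, left out as a check added after the values were seen, the median of the remaining 3 was -0.27. Acer1, the alkaline ceramidase typical of skin, was below the filter at 2.56 in KO and 2.59 in WT. The macrophage and sinusoidal endothelial marker lists given further on were also lower in KO, with median differences of -0.47 and -0.51, and their part in the lower values of the ceramidase genes, Degs1 and Cerk was not tested. A direction shared by 4 genes with 1 probe set each and 1 array per genotype has no replicate behind it.

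**Figure D2:**
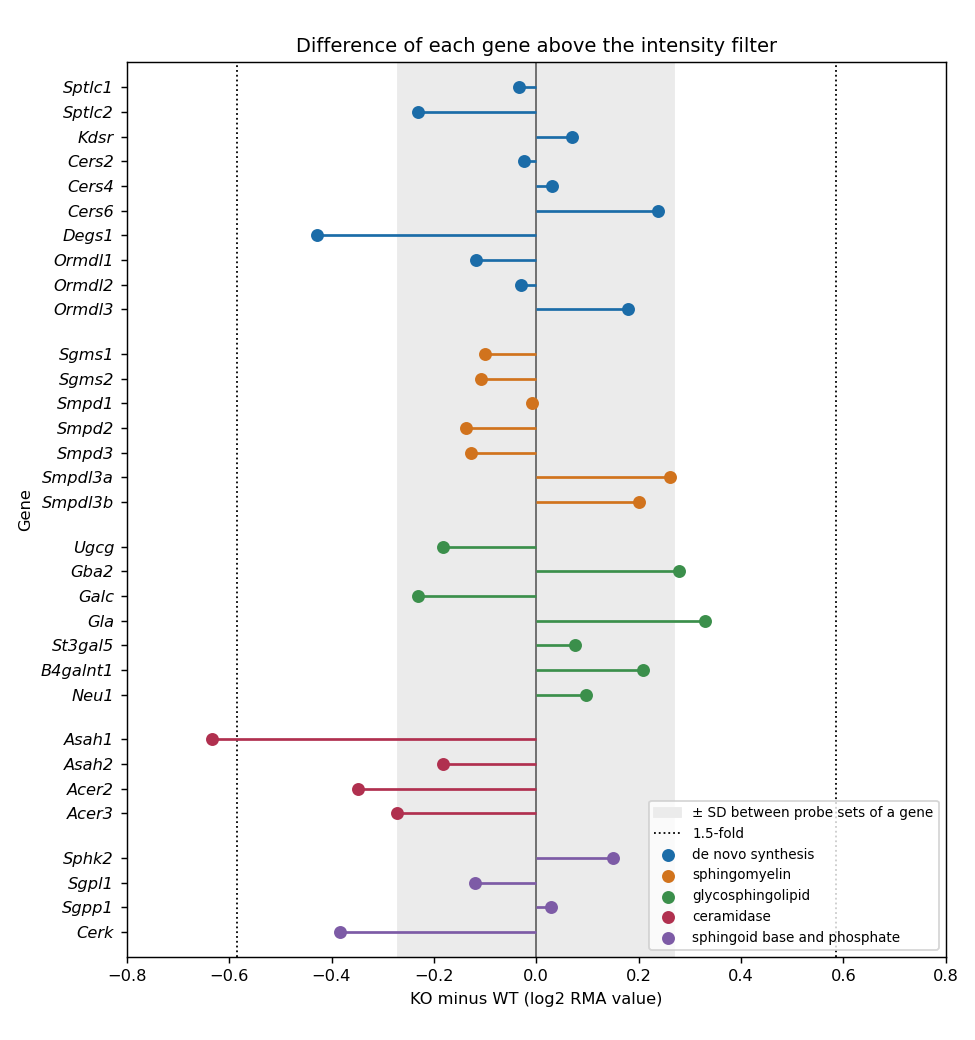
KO minus WT difference (log2 RMA value, horizontal axis) of the 32 compared members, coloured by step, with the standard deviation between probe sets (0.27 on either side of 0) shaded and 1.5-fold marked by dotted lines. The 4 ceramidase genes lie left of 0 and Asah1 alone crosses the dotted line.

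The lysosomal members with a value of their own, which leaves out Glb1, lay on both sides of 0. Of the 5 compared lysosomal hydrolases, Asah1 (-0.63), Galc (-0.23) and Smpd1 (-0.01) lay below 0, while Neu1 (0.10) and Gla (0.33) lay above it. Their median difference was -0.01. Of lysosomal pathway genes outside the member list, Arsa (-0.28), Hexa (-0.16) and Gm2a (-0.06) lay below 0 and Psap (0.04) above it. A part of lysosomal location in these differences was not tested.

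Genes that act on sphingosine and its phosphate were split. Sphk2, the sphingosine kinase found also in the nucleus, differed by 0.15 (7.09 in KO, 6.94 in WT). Sphk1, the cytosolic kinase, was below the filter at 4.19 in KO and 4.13 in WT. Sgpp1, the phosphatase that returns sphingosine-1-phosphate to sphingosine, differed by 0.03 (6.72 in KO, 6.69 in WT), with 2 probe sets at 0.07 and -0.02. These 3 genes lay well within the disagreement between probe sets.

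Irreversible removal of sphingosine-1-phosphate runs through the lyase Sgpl1, which differed by -0.12 (7.86 in KO, 7.98 in WT). Cerk, the kinase that makes ceramide-1-phosphate, was lower in KO, at 5.44 in KO against 5.82 in WT (difference -0.38), and ranked 822nd from the lowest. The 4 compared genes of this step had a median difference of -0.05.

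**Figure D3:**
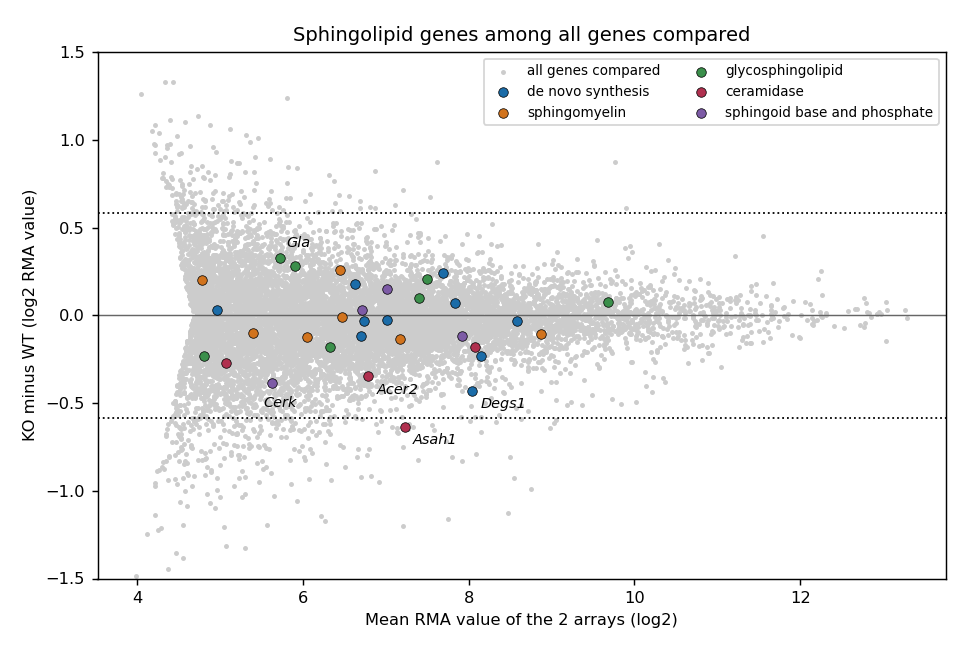
KO minus WT difference (vertical axis, log2 RMA value) against the mean RMA value of both arrays (horizontal axis, log2) for all genes compared (grey, shown within 1.5 units of 0) and for the 32 compared members, coloured by step. The members lie within the grey cloud, with Asah1 at -0.63 as the lowest and Gla at 0.33 as the highest.

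Brightness bears on how these differences can be read, because the spread of all genes narrowed with signal. The standard deviation of the differences was 0.36 in the dimmest of 4 equal groups of compared genes, 0.28 in the next, 0.20 in the one after it and 0.16 in the brightest. Of the members, 5 were in the dimmest group, 5 in the next, 13 in the following and 9 in the brightest. Degs1, Cers6 and Sptlc2 were in the brightest group and Asah1 and Acer2 in the one below it. Cerk, Gla and Gba2 were in the second dimmest and Acer3 in the dimmest.

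A further 51 symbols of the pathway, not among the 39, gave 45 measured genes, of which 32 were compared. Their median difference was -0.03, with 18 below 0 and 14 above. At 1.5-fold 2 of them were lower in KO, against 2.45% of all genes, and none was higher, against 1.47%. At the lower threshold 3 were lower, against 10.4% of all genes, and 4 were higher, against 6.62%. Both genes past 1.5-fold were dim and below the filter in KO. Abcc1, a transporter that exports sphingosine-1-phosphate among other substrates, read 4.18 in KO and 5.16 in WT and was at least 1.39-fold lower against the filter. B4galt6, a lactosylceramide synthase, read 4.23 in KO and 5.15 in WT and was likewise at least 1.39-fold lower, while B4galt5, which catalyses the same reaction, differed by -0.04 (7.54 in KO, 7.58 in WT).

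Genes that act on galactosylceramide and sulfatide showed both signs. Ugt8a, which makes galactosylceramide, read 4.78 in KO and 4.40 in WT, at least 1.07-fold higher against the filter, and Gal3st1, which sulfates it, read 5.13 in KO and 4.75 in WT. Arsa, the lysosomal sulfatase that removes the sulfate, differed by -0.28 (6.79 in KO, 7.07 in WT), and Galc, described above, by -0.23. The receptor gene S1pr5 differed by 0.33 (5.28 in KO, 4.95 in WT), whereas the endothelial receptor gene S1pr1 differed by -0.15 (7.86 in KO, 8.0 in WT). Plpp2, a lipid phosphate phosphatase, differed by -0.37 (6.21 in KO, 6.59 in WT).

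The 2 genes of these lists with more than 1 probe set each had a larger difference in 1 of them. Plekha8, which carries glucosylceramide between membranes, differed by 0.34 as the mean of 0.13 and 0.56, where 0.56 came from a dim probe set. Aldh3a2, a fatty aldehyde dehydrogenase that acts after the lyase, differed by 0.32 as the mean of 0.53 and 0.11. The hepatocyte-made carrier of sphingosine-1-phosphate, Apom, read 7.56 in KO and 7.49 in WT, and Psap, whose product is cut into the activators of lysosomal sphingolipid hydrolysis, differed by 0.04 (10.30 in KO, 10.26 in WT).

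Liver holds other cells besides hepatocytes that also carry this pathway, and their markers differed between the arrays. Hepatocyte markers were close on both, with Alb at 13.28 in KO and 13.30 in WT and Ttr at 12.84 in KO and 12.83 in WT. Their median difference was -0.04 over 8 markers, of which Serpina1b (-0.17) and Cps1 (-0.13) differed most. Serpina1b was dim, at 5.14 in KO and 5.31 in WT, while Alb lay near the highest value on these arrays, 13.50. All 12 markers of sinusoidal endothelium were above the filter on both arrays and lower in KO. Their summed linear signal was 2299 in KO and 3267 in WT, their median difference was -0.51, and they ranged from -0.25 to Lyve1 at -0.83, with Tek at -0.66, Clec4g at -0.59 and Fcgr2b at -0.38. All 12 macrophage markers were likewise above the filter on both arrays and lower in KO, with a summed linear signal of 1665 in KO and 2394 in WT and a median of -0.47. The macrophage markers ranged from -0.09 to C1qb at -0.81, with Vsig4 at -0.71 and Clec4f at -0.47. Fewer cells of a type and less RNA per cell cannot be told apart in whole tissue.

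Stellate cell markers had a median difference of -0.19 over 8 genes, with Lrat at -0.52, Reln at -0.17 and Dcn at -0.14, while Des read 4.68 in KO and 3.75 in WT and passed the filter only just and only in KO, so no fold is given for it. The lists for T and NK cells (8 measured genes), B cells (4 genes) and neutrophils (6 genes) had no gene above the filter. Of 5 cholangiocyte markers only Sox9 did, at 5.33 in KO and 5.50 in WT.

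**Figure D4:**
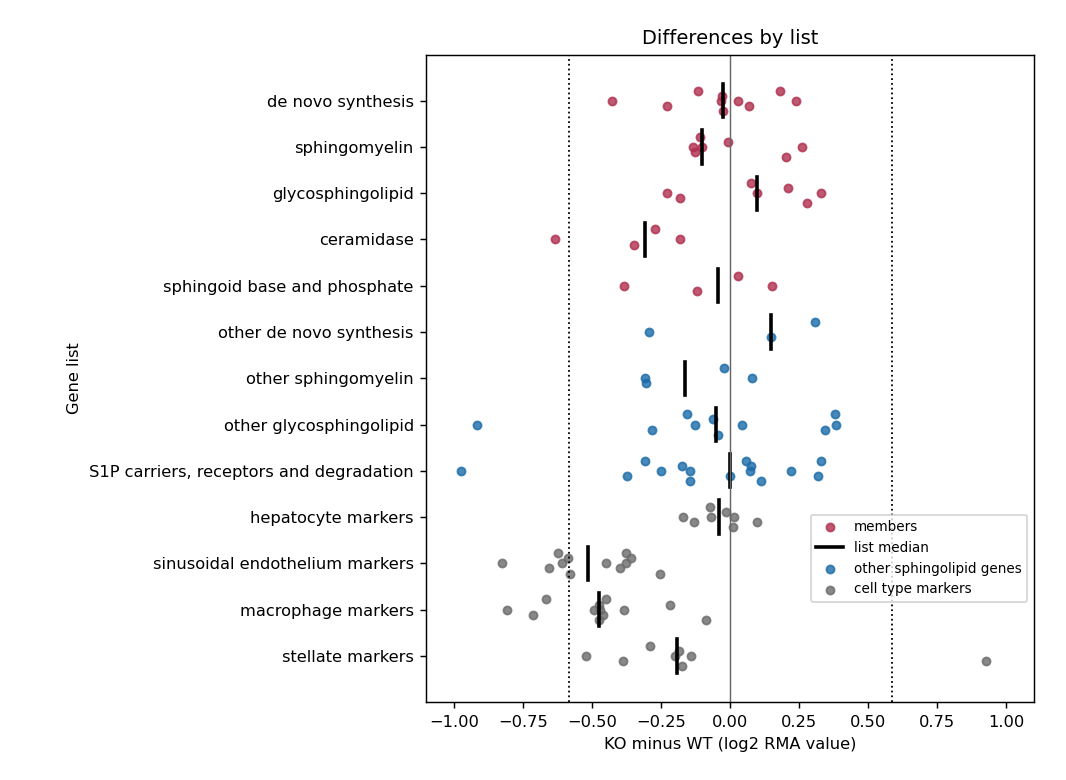
KO minus WT difference (log2 RMA value, horizontal axis) of every compared gene in the 5 steps, in the lists of other sphingolipid genes and in 4 marker lists, with list medians as black bars and 1.5-fold as dotted lines. Ceramidases have a median of -0.31, the endothelial and macrophage markers have medians of -0.51 and -0.47, and the other 4 steps of the member list centre between -0.10 and 0.10.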

How the data were processed

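Liver RNA of 3 pooled mice per genotype was measured on 1 Affymetrix array for Iah1-KO and 1 for Iah1-WT. The deposited table holds log2 values per probe set, which the authors made with RMA in Affymetrix Expression Console 1.3.0, per the submitters' processing notes. RMA equalises the probe distributions of the arrays, which would remove a general shift, and compresses differences of dim genes. The build behind the array design was not given in the sources used here.

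Of 41345 probe sets, the platform annotation gave 23521 a single symbol, 1814 several and 16010 none. Values were averaged over a gene's single-symbol probe sets (pandas 2.3.3, numpy 2.4.6). Genes were compared where the higher array reached the median of such values, 4.68. Differences are KO minus WT. With 1 array per genotype no test was made, genes were counted by size (1.5-fold), and the number of arrays limits precision. The scripts were tested on simulated data. Where an array lay below the filter, the fold was taken against the filter, which is no detection limit.

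The members and gene lists were chosen with earlier results of these data known. Named genes were Iah1, all members, the 8 other pathway genes with the largest differences, and from each marker list the 2 brightest and the 2 with the largest differences. B4galt5, S1pr1, Apom, Psap, Arsa, Hexa, Gm2a and Cert1 were added after their values were seen. Alternatives were a lower (0.32 on the log2 scale) and a 2-fold threshold, filters dropped or raised to percentile 75, a fitted loess trend removed (span 0.4, statsmodels 0.14.6), renewed quantile normalization, centring on the median difference, only the brightest probe set, and list means.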

Additional observations from a re-analysis of the deposited data

Results flagged for a closer look

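A probe set that the annotation assigns to Dnajc14 and Ormdl2 together was left out of all comparisons and read higher in KO than in WT, at 6.38 in KO and 5.71 in WT (difference 0.68, 1.60-fold). The probe set that names Ormdl2 alone differed by -0.03. The shared probe set cannot be assigned to either gene. The probe set shared by Glb1 and Tmppe read 4.92 in KO and 5.47 in WT.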

How the results depend on the processing

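No paired analysis was possible because each genotype has 1 array. At a threshold of 0.32 on the log2 scale, 1 member was higher and 4 were lower in KO, and at 2-fold 0 members were lower. The other alternatives kept Asah1 as the 1 member lower at 1.5-fold. Its difference was -0.60 under loess and under quantile normalization, and -0.61 with median subtraction, which moves all genes by the same amount. Taking the brightest probe set could not change it, because Asah1 has 1 probe set. The ceramidase median ranged from -0.35 to -0.27 and the glycosphingolipid median from 0.10 to 0.13. The value of -0.27 came from dropping the filter, which adds Acer1, and from leaving out Asah1. Means over the members were -0.36 for ceramidases and 0.08 for glycosphingolipids. Medians close to 0 turned sign under some alternatives, reaching 0.01 for de novo synthesis, 0.03 for sphingoid bases and their phosphates and 0.01 for the other sphingolipid genes. Single genes that turned sign were Cers2 (up to 0.13), Smpd1 (up to 0.03), Sptlc1 (up to 0.01), Alb (up to 0.01) and Ttr (down to -0.00, -0.0023). Counting Cert1 as Col4a3bp, an alternative chosen after seeing the data, gave a member median of -0.03. Dim members such as Smpdl3b and Galc lie near the filter, which limits what their values show.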
